A study of Mus musculus with 6 samples.

Results

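Chemokines and their receptors were followed in brain tissue of mice with Foxr2 overexpression, with or without loss of p53. The members were all rows of the gene tables whose symbol is Ccl, Cxcl, Ccr, Cxcr, Xcl or Ackr followed by a number, together with Cx3cl1, Cx3cr1 and Xcr1. The rule used names alone, but the family was chosen with earlier results of these data known. This gave 66 of 32298 rows, made up of 44 ligands, 18 receptors and 4 atypical receptors under 60 unique symbols. 59 rows lie on the assembled chromosomes. The other 7 lie on unplaced scaffolds, carry symbols of the Ccl19, Ccl21 and Ccl27a genes, and held no unique molecular identifier (UMI, 1 counted RNA molecule) in any kept nucleus.

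Nuclei of brain lesions of C57BL/6J mice were profiled by 10x Multiome, which reads RNA and open chromatin (ATAC) in the same nucleus. In all groups, piggyBac vectors had been electroporated in utero into the ganglionic eminences, where they drove V5-tagged Foxr2, the luciferase Akaluc and GFP from the ubiquitous CAG promoter with a transposase from a helper vector. The Foxr2 p53LOF group also received Cas9 with a guide against Trp53, and the Foxr2 alone group did not receive that guide. The study also lists a Cas9 vector with a control guide, and its text does not say which mice received it. The 6 records form 3 libraries, Foxr2 p53LOF replicate 1 and Foxr2 alone replicates 1 and 2. Only the peaks and barcodes of Foxr2 alone replicate 2 were analysed here, so each genotype has 1 library with counts. The labels call the tissue of both genotypes brain tumor. The study describes the Foxr2 p53LOF lesions as high-grade tumors, and those of Foxr2 alone as lesions that do not proliferate. It also inferred chromosomal abnormalities and called malignant cells in both models. The ages of the mice are not given in the sources used here. With 1 library per genotype no test between genotypes was possible, and every interval below is a 95% interval for counting error only. The genotype, the mouse and the library cannot be told apart.

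Chemokines are small secreted proteins that steer migrating cells along gradients, and their receptors signal through G proteins. In the brain, neurons make the membrane-bound chemokine Cx3cl1, and microglia, the resident macrophages, carry its receptor Cx3cr1. Blood monocytes enter inflamed tissue by way of Ccr2, T cells by way of Cxcr3, and Cxcl12 with Cxcr4 guides neural and oligodendrocyte precursors during development. Atypical receptors bind chemokines without G protein signalling and remove or relocate them.

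The libraries held 96929539 UMIs in Foxr2 p53LOF and 59719847 in Foxr2 alone, and 8359 and 8316 nuclei were kept, at medians of 5527 and 3637 UMIs. As many as 140 barcodes occurred in both libraries. Foxr2 was read at 42.6 and 3.61 CPM (its share of all UMIs of the summed nuclei, times 1000000) and in 19.4% and 1.48% of nuclei, and GFP at 323.5 and 29.0 CPM, in 58.3% and 6.48% of nuclei. Trp53 was read at 33.6 and 12.9 CPM, and since a guide makes small insertions or deletions, this level does not check the label. Clusters were named from marker genes that include no member. Neuron-like nuclei numbered 2253 in Foxr2 p53LOF and 4249 in Foxr2 alone, oligodendrocyte-like nuclei 1532 and 3023, astrocyte-like nuclei 1123 and 425, nuclei like oligodendrocyte precursors (OPC-like) 97 and 169, and nuclei like committed precursors (COP-like) 960 and 1. Immune-like nuclei were 1792 (21.4%) of the Foxr2 p53LOF library and 422 (5.08%) of the Foxr2 alone library, with 60 and 25 vascular-like nuclei. Immune-like, astrocyte-like, oligodendrocyte-like and neuron-like nuclei of the 2 libraries lay in different clusters, and the median immune-like nucleus held 2653.5 UMIs in Foxr2 p53LOF and 1131 in Foxr2 alone. Classes with under 50 nuclei in a library were not ranked.

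Scaled to the UMIs of each class, receptor RNA was highest in immune-like nuclei, whereas ligand RNA was spread over more classes. In Foxr2 p53LOF, 50 of 66 members reached 3 UMIs (30 ligands and 20 receptors, atypical ones included), where 73.4% of all genes did. In Foxr2 alone 41 did (23 and 18), against 71.2% of all genes. Among the 40 members with at least 10 UMIs in Foxr2 p53LOF, immune-like nuclei had the highest CPM for 19, neuron-like and vascular-like nuclei for 6 each, astrocyte-like nuclei for 4, COP-like nuclei for 3 and OPC-like nuclei for 2. Of the vascular-like leads, those of Ackr1, Cxcl1 and Ccl8 rest on 2 UMIs each, and the OPC-like leads of Ccl22 and Ccr7 on 1 and 4 UMIs. Immune-like nuclei led 17.5% of all genes. In Foxr2 alone, immune-like nuclei led 14 of 32 members, against 27.1% of all genes, neuron-like nuclei led 8 and astrocyte-like nuclei 7. The immune-like leads of Cxcr2, Cxcr5 and Ccl5 there rest on 1 UMI each.

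Summed over all ligands, the level in immune-like nuclei was 508.2 CPM (490.9 to 525.9) for Foxr2 p53LOF, against 315.8 CPM (271 to 365.9) for Foxr2 alone. Astrocyte-like nuclei held 320.8 and 319.1 CPM, and neuron-like nuclei 155.9 and 268.5 CPM. Ligand RNA was thus close in the astrocyte-like nuclei of both libraries, at a log2 ratio of 0.01 (-0.13 to 0.15), although it came from different ligands, as described below. Summed over receptors, immune-like nuclei held 1283.2 CPM (1255.6 to 1311.3) in Foxr2 p53LOF, against 340.7 CPM (294.1 to 392.6) for Foxr2 alone. In UMIs the order differed in Foxr2 alone, where neuron-like nuclei held 1949 receptor UMIs and immune-like nuclei 191. By CPM the next classes were far below the immune-like class, at 127.4 CPM in vascular-like nuclei of Foxr2 p53LOF and 60.9 CPM in OPC-like nuclei of Foxr2 alone. Set against Foxr2 alone, immune-like nuclei of Foxr2 p53LOF had a log2 ratio of 0.69 (0.47 to 0.91) for ligands and 1.91 (1.71 to 2.13) for receptors.

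**Figure D1:**
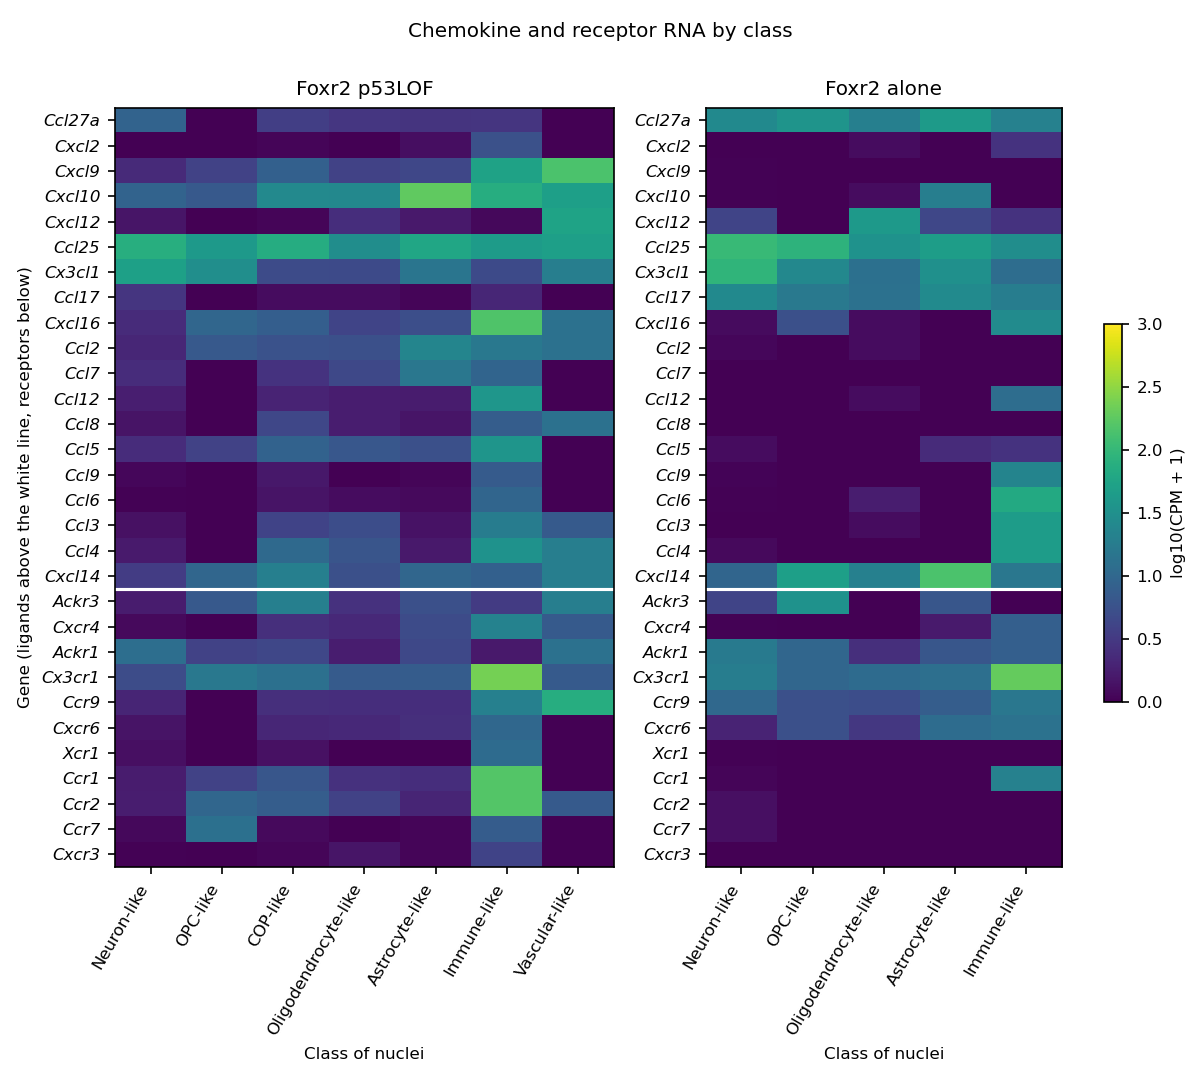
Level of named members in each cell class of Foxr2 p53LOF and Foxr2 alone, as log10 of CPM plus 1, with ligands above the white line and receptors below it. Receptor rows are bright mainly in the immune-like column, at 233.5 CPM for Cx3cr1 in Foxr2 p53LOF, whereas astrocyte-like nuclei are brightest for Cxcl10 in Foxr2 p53LOF (182.3 CPM) and for Cxcl14 in Foxr2 alone (139.6 CPM).

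The share of single nuclei with any member RNA showed the same contrast between ligands and receptors. Each nucleus was thinned to 1000 UMIs, which left 1759 of 1792 immune-like nuclei in Foxr2 p53LOF and 278 of 422 in Foxr2 alone. Any receptor UMI was found in 65.4% (63.2 to 67.7) of immune-like nuclei of Foxr2 p53LOF and 27.3% (22.2 to 33.0) of those of Foxr2 alone. In neuron-like nuclei, which should lack most of these receptors and whose medians were 9963 and 7304 UMIs, the shares were 2.62% and 5.60%. Any ligand UMI was found in 32.1% (29.9 to 34.4) and 16.6% (12.4 to 21.5) of immune-like nuclei, in 21.8% and 20.99% of astrocyte-like nuclei, and in 14.2% and 23.6% of neuron-like nuclei. In neuron-like nuclei of Foxr2 alone, Ccl25 held 3441, Ccl27a 849 and Ccl17 845 of the 8880 ligand UMIs, and the part of free RNA in these shares was not tested.

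**Figure D2:**
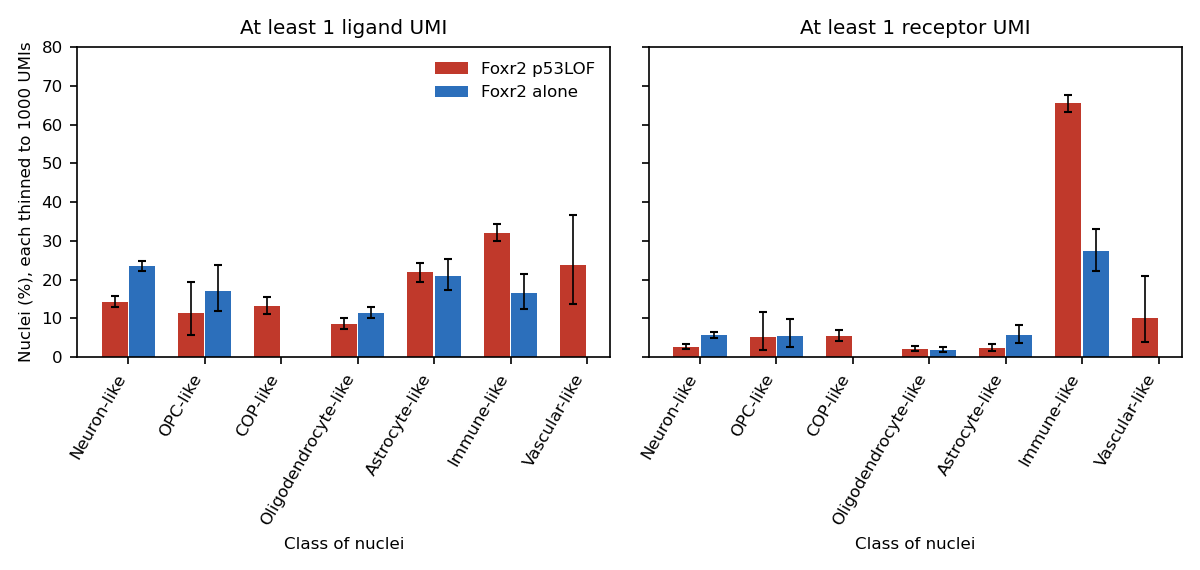
Percent of nuclei of each class with at least 1 UMI of any ligand or of any receptor after thinning to 1000 UMIs, with exact binomial 95% intervals; classes with under 50 nuclei in a library have no bar. Receptor bars reach 65.4% and 27.3% in immune-like nuclei and at most 10.2% in the other classes shown, whereas ligand bars stand at 8.50% or more in every class.

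Among the receptors, Cx3cr1, the fractalkine receptor of microglia, was read in immune-like nuclei at 233.5 CPM (222 to 246) for Foxr2 p53LOF and 194.5 CPM (160 to 235) for Foxr2 alone, a log2 ratio of 0.26 (-0.02 to 0.56), an interval that takes in 0. That ratio depended on the nuclei compared, since it was 0.58 (0.29 to 0.88) for microglia-like nuclei of Foxr2 p53LOF over all immune-like nuclei of Foxr2 alone, and the larger microglia-like subcluster held 420.5 CPM where the main subcluster of Foxr2 alone held 208.3 CPM. After thinning, 20.4% and 17.6% of immune-like nuclei had a Cx3cr1 UMI, and 0.488% and 1.70% of neuron-like nuclei did.

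Ccr1 and Ccr2 mark monocytes and the macrophages they give rise to. Ccr1 was read at 156.8 CPM (147 to 167; 1004 UMIs) in immune-like nuclei of Foxr2 p53LOF, against 19.6 CPM (9.80 to 35.1; 11 UMIs) in those of Foxr2 alone, a log2 ratio of 3.0 (2.15 to 4.0). Ccr2 was read at 155.7 CPM (146 to 166; 997 UMIs) and at 0 UMIs, which makes it at least 29.1-fold higher in Foxr2 p53LOF against a floor of 3 counts over the class. The whole Foxr2 alone library held 11 Ccr2 UMIs in its ranked classes, all in neuron-like nuclei, at 0.333 CPM. Of the 11 Ccr1 UMIs in immune-like nuclei of Foxr2 alone, 8 were in 3 nuclei of a subcluster led by the neutrophil genes S100a8 and S100a9. This library held 6 nuclei of that subcluster, and without it the Ccr1 log2 ratio was 4.74 (3.19 to 7.02). The subcluster was left unnamed, since over both libraries 8 of 9 macrophage markers but 2 of 6 neutrophil markers passed the naming threshold. It is therefore not called neutrophil here.

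The remaining receptors were read on fewer UMIs. Cxcr4, the receptor of Cxcl12, was at 20.2 CPM (16.8 to 23.9) and 7.14 CPM (1.94 to 18.3) in immune-like nuclei, the second on 4 UMIs. Cxcr6, which binds Cxcl16 on T cells, was at 9.06 and 12.5 CPM, with overlapping intervals. In Foxr2 alone, however, immune-like nuclei held 7 of its 65 UMIs, neuron-like nuclei 32 and astrocyte-like nuclei 16, at 10.6 CPM. Ccr9, the receptor of Ccl25 on thymocytes and some dendritic cells, was at 19.1 and 14.3 CPM, the second on 8 UMIs. In the 60 vascular-like nuclei of Foxr2 p53LOF, 12 of its UMIs gave 72.8 CPM (37.6 to 127). In Foxr2 alone, 307 of its 344 UMIs lay in neuron-like nuclei. Its annotated span overlaps Gm17200 on the same strand, and its promoter peak covers the start of Slc6a20a, so reads of Ccr9 are uncertain. Xcr1, a receptor of cross-presenting dendritic cells, was at 10.3 CPM in Foxr2 p53LOF and at 0 UMIs in immune-like nuclei of Foxr2 alone, at least 1.93-fold. Ccr7, which leads dendritic cells to lymph nodes, held 41 UMIs in immune-like nuclei of Foxr2 p53LOF. Cxcr3, the receptor of Cxcl9 and Cxcl10 on activated T cells, held 19 UMIs there and 0 UMIs in all kept nuclei of Foxr2 alone.

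Outside the immune-like class, a few receptors had their own pattern. Ackr3, which scavenges Cxcl12 and is known from oligodendrocyte precursors, was highest among the larger classes in COP-like nuclei of Foxr2 p53LOF, at 18.7 CPM (16.2 to 21.4; 205 UMIs in 96 nuclei). In Foxr2 alone it was highest in OPC-like nuclei, at 32.6 CPM (18.2 to 53.8; 15 UMIs), and it was at 0 UMIs in immune-like nuclei there. Ackr1, the Duffy receptor of vessels and red cells, was read in neuron-like nuclei at 11.1 and 16.2 CPM. Its annotated span overlaps Cadm3 on the same strand, so these reads cannot be assigned to it with certainty. Cx3cr1 was at 17.9 CPM (591 UMIs) in neuron-like nuclei of Foxr2 alone and 4.01 CPM in those of Foxr2 p53LOF. Its annotated span (chr9:119901616-120069879, mm10) takes in Csrnp1, Gorasp1 and Xirp1 on the same strand, and its promoter in those neuron-like nuclei gave a promoter CPM (ATAC counts per 1000000 counts in peaks of the class) of 0.859 against 54.3 in immune-like nuclei, so the neuronal UMIs are uncertain too.

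COP-like nuclei of Foxr2 p53LOF held a low level of receptors that were otherwise immune, with Cx3cr1 at 11.7 CPM, Ccr2 at 6.75 CPM and Ccr1 at 5.38 CPM. All 8 of 8 general immune markers had UMIs in these nuclei, summed to 486.6 CPM against 9732.2 CPM in immune-like nuclei. In other classes of that library the same sum ran from 78.2 CPM in neuron-like to 464.3 CPM in OPC-like nuclei. The inflammatory chemokines of COP-like nuclei sat in few nuclei, since 2 nuclei held 50% or more of the 33 Ccl3 UMIs, 3 nuclei did so for the 105 Ccl4 UMIs, and 1 nucleus held 30 of the 80 Cxcl9 UMIs. The part of immune RNA or of doublets in these values was not tested.

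Cxcl10, an interferon-induced ligand that draws activated T cells by Cxcr3, was higher in astrocyte-like nuclei of Foxr2 p53LOF. It was read at 182.3 CPM (174 to 191; 1876 UMIs in 424 of 1123 nuclei) in astrocyte-like nuclei of Foxr2 p53LOF and 17.95 CPM (11.8 to 26.1; 27 UMIs) in those of Foxr2 alone, where 7 nuclei held all of the UMIs and 1 nucleus held 15. The log2 ratio was 3.34 (2.80 to 3.95). In Foxr2 p53LOF, 61 astrocyte-like nuclei held 50% of the Cxcl10 UMIs and the most in 1 nucleus was 76, so the level was uneven among nuclei but did not rest on a handful. The next classes were immune-like nuclei at 72.9 CPM (66.5 to 79.9) and vascular-like nuclei at 48.5 CPM (8 UMIs). Immune-like nuclei of Foxr2 alone held 0 Cxcl10 UMIs, which made Cxcl10 at least 13.6-fold higher in Foxr2 p53LOF.

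Cxcl14, a ligand of unsettled receptor made by resting epithelia and glia, had the opposite direction in astrocyte-like nuclei. It was read at 8.84 CPM (7.12 to 10.9) in Foxr2 p53LOF, against 139.6 CPM (121 to 160; 210 UMIs in 137 of 425 nuclei) for Foxr2 alone, giving a log2 ratio of -3.98 (-4.35 to -3.62). After thinning, 0.801% and 9.43% of astrocyte-like nuclei had a Cxcl14 UMI, while 12.1% and 0.708% had a Cxcl10 UMI. In Foxr2 p53LOF the level of Cxcl14 was higher in COP-like nuclei, at 18.8 CPM (16.3 to 21.6), than in astrocyte-like nuclei. The astrocyte-like nuclei of the 2 libraries also differed in markers. All 8 astrocyte markers had UMIs in both, summed to 3123.1 CPM in Foxr2 p53LOF against 11818.3 CPM for Foxr2 alone, while all 8 OPC markers summed to 6044.7 and 1662.2 CPM. GFP was at 572.5 CPM in these nuclei of Foxr2 p53LOF and 151.6 CPM in those of Foxr2 alone. An ATAC count on the vector was found in 30.4% of these nuclei in Foxr2 p53LOF. In Foxr2 alone 0% of all kept nuclei had such a count, although 6.48% had a GFP UMI. That 0% therefore does not show that its astrocyte-like nuclei lack the vector. The part of these differences in the Cxcl10 and Cxcl14 ratios was not tested.

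The promoters of Cxcl10 and Cxcl14 are shown because these ligands had opposite directions in astrocyte-like nuclei and because both hold the core of the interferon-stimulated response element, spelled GAAA, 2 bases of any kind and GAAA. Each run is the 250 bases before the RefSeq start on build GRCm38.p6, read 5′ to 3′ on the gene's strand, with capitals marking that core or the kappaB core, spelled GGG, 5 bases of any kind and CC. All 250 bases lay under a called peak in each of the 3 libraries.
Cxcl10 (chr5:92348890-92349139, minus strand): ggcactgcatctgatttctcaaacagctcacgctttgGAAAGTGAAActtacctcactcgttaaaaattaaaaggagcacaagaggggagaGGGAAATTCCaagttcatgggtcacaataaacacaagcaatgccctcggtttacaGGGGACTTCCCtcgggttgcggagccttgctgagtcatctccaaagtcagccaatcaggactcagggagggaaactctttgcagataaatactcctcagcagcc
Cxcl14 (chr13:56296552-56296801, minus strand): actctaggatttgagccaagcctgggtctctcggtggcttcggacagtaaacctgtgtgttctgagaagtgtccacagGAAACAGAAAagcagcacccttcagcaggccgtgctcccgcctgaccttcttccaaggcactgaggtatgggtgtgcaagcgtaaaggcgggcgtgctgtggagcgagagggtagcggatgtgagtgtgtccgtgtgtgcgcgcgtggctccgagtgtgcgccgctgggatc
In Cxcl10 the interferon core began 213 bases before the start and the kappaB cores 159, 104 and 103 bases before it. In Cxcl14 the interferon core began 172 bases before the start, and the kappaB core had no match. Of 32851 promoters of this length 2.98% held the interferon core on either strand, as did 3 of 53 member promoters, those of Ccl19, Cxcl10 and Cxcl14. The kappaB core was in 45.8% of all promoters and in 27 of the 53. A match describes the letters only. The member promoters are those whose symbol in the RefSeq table matched the naming rule. Their 46 symbols include Ccl21d, which none of the rows followed here carries, and leave out Ccl2, Ccl5, Ccl7 and Cxcl16.

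Cxcl9, the interferon-induced neighbour of Cxcl10 on chromosome 5, was read at 53.1 CPM (47.6 to 59.0; 340 UMIs) in immune-like nuclei of Foxr2 p53LOF and at 0 UMIs in those of Foxr2 alone, at least 9.92-fold higher. Its highest class level was in vascular-like nuclei, at 139.5 CPM (88.5 to 209) on 23 UMIs, and astrocyte-like nuclei held 3.30 CPM. The pair thus differed in source, with Cxcl10 highest in astrocyte-like and Cxcl9 in vascular-like and immune-like nuclei. The whole Foxr2 alone library held 1 Cxcl9 UMI.

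The Ccr2 ligands Ccl2, Ccl7 and Ccl12 lie in the same cluster of Ccl genes on chromosome 11. Ccl2, the main monocyte attractant, was read in Foxr2 p53LOF at 22.4 CPM (19.6 to 25.5; 231 UMIs in 114 nuclei) in astrocyte-like and 14.7 CPM (11.9 to 17.96) in immune-like nuclei. Ccl7 was at 14.6 CPM (12.3 to 17.1; 150 UMIs) and 8.28 CPM. Ccl12, in contrast, was at 36.5 CPM (32.0 to 41.5) in immune-like nuclei and 0.680 CPM in astrocyte-like nuclei. In Foxr2 alone, Ccl7 and Ccl8 had 0 UMIs in all kept nuclei, Ccl2 had none in astrocyte-like or immune-like nuclei, and Ccl12 was at 10.7 CPM (6 UMIs) in immune-like nuclei. Against the floor, Ccl2 was at least 11.2-fold and Ccl7 at least 7.31-fold higher in astrocyte-like nuclei of Foxr2 p53LOF, and in immune-like nuclei at least 2.74-fold and 1.55-fold.

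Ccl3, Ccl4 and Ccl5 are inflammatory ligands that attract T cells and myeloid cells. Ccl5, made by T and NK cells, was read in immune-like nuclei at 35.3 CPM (30.8 to 40.2) in Foxr2 p53LOF, against 1.78 CPM for Foxr2 alone, giving a log2 ratio of 4.31 (1.81 to 9.62) that rests on 1 UMI in Foxr2 alone. Ccl3 and Ccl4 did not share this direction. Ccl3 was at 17.3 CPM (14.3 to 20.9) and 44.6 CPM (28.9 to 65.8), a log2 ratio of -1.36 (-2.0 to -0.68), and Ccl4 at 33.3 and 44.6 CPM, with a log2 ratio of -0.42 (-1.02 to 0.24). In Foxr2 alone the 25 Ccl3 UMIs lay in 11 nuclei and the 25 Ccl4 UMIs in 4 nuclei, of which 1 held 13, so these levels came from few nuclei. A single nucleus of the S100a8 and S100a9 subcluster held 9 of the Ccl3 UMIs, and without that subcluster the Ccl3 ratio was -0.84 (-1.61 to 0.02), no longer past 2-fold.

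Ccl6 and Ccl9, myeloid ligands of Ccr1, were lower in immune-like nuclei of Foxr2 p53LOF when all of these nuclei were summed. Ccl6 was at 8.43 CPM (6.33 to 11.0) against 66.0 CPM (46.5 to 91.0), a log2 ratio of -2.97 (-3.60 to -2.32). Of its 37 UMIs in Foxr2 alone, however, 32 lay in the 6 nuclei of the S100a8 and S100a9 subcluster. Without that subcluster the ratio was -0.10 (-1.42 to 1.58) on 5 UMIs in Foxr2 alone, too few to read a difference in either direction. Ccl9 was at 6.25 and 21.4 CPM, a log2 ratio of -1.78, and -1.55 without the subcluster. Cxcl2, a neutrophil attractant, was at 4.53 CPM in Foxr2 p53LOF, where 1 nucleus held 14 of the 29 UMIs.

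Cxcl16, which is held on the membrane of antigen-presenting cells until cut, was read in immune-like nuclei at 150.1 CPM (141 to 160; 961 UMIs) in Foxr2 p53LOF, against 26.8 CPM (14.98 to 44.1; 15 UMIs) for Foxr2 alone, giving a log2 ratio of 2.49 (1.76 to 3.33). Its level was at most 12.1 CPM in any other ranked class of Foxr2 p53LOF.

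Cx3cl1 and Cxcl12, which neurons, glia and vessels make without inflammation, were past 2-fold lower in Foxr2 p53LOF in oligodendrocyte-like nuclei, and Cx3cl1 in astrocyte-like nuclei also. Cx3cl1 was there at 3.66 and 11.94 CPM (Foxr2 p53LOF, then Foxr2 alone) in oligodendrocyte-like nuclei, and at 13.8 and 31.25 CPM in astrocyte-like nuclei. In the same order, the 8 neuron markers summed to 169.9 and 668 CPM in oligodendrocyte-like and 804.7 and 2110.3 CPM in astrocyte-like nuclei. In immune-like nuclei they summed to 184.9 and 636.9 CPM. The part of neuron RNA in the Cx3cl1 ratios of these classes was not tested. Cx3cl1 was highest in neuron-like nuclei, at 49.3 CPM (46.6 to 52.1) in Foxr2 p53LOF, against 91.2 CPM (88.0 to 94.5) for Foxr2 alone, giving a log2 ratio of -0.89, which is within 2-fold. The 2 libraries share no neuron-like cluster with 50 nuclei of each, so neuron subtype and genotype cannot be told apart in that ratio. Over the neuron-like clusters with at least 50 nuclei of Foxr2 alone, Cx3cl1 ran from 43.1 CPM in a cluster of 94 nuclei to 115 CPM in a cluster led by Drd1 and Tac1, and over those of Foxr2 p53LOF from 30.1 to 58.7 CPM. Cxcl12 was in oligodendrocyte-like nuclei of Foxr2 p53LOF at 1.46 CPM and 40.4 CPM (34.4 to 47.2; 159 UMIs in 134 nuclei) in those of Foxr2 alone, a log2 ratio of -4.79 (-6.26 to -3.63). In Foxr2 p53LOF its highest level was in vascular-like nuclei, at 54.6 CPM (24.97 to 104) on 9 UMIs, and there the ratio was -0.83 (-2.49 to 0.94).

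Ccl25, Ccl17 and Ccl27a were read in every ranked class of Foxr2 alone. Ccl25, a thymic and gut ligand, was read in Foxr2 p53LOF at 28.3 to 74.2 CPM and in Foxr2 alone at 28.5 to 104 CPM over all ranked classes. Ccl17 was at 12.2 to 26.6 CPM in every ranked class of Foxr2 alone and at most 1.91 CPM in Foxr2 p53LOF, and Ccl27a at 18.5 to 41.9 CPM in Foxr2 alone and 1.85 to 8.10 CPM in the classes of Foxr2 p53LOF in which it had 3 UMIs. For Ccl17 and Ccl27a, then, all classes of 1 library stood above all classes of the other. Ccl25 and the opposite-strand gene Elavl1 share a promoter peak. Ccl27a has near-identical copies nearby, so reads of Ccl27a are uncertain. Ccl25 was highest in neuron-like nuclei of both libraries. The part of free RNA in these levels was not tested.

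In immune-like nuclei 24 of 66 members reached 10 CPM in a library. With a 2-fold difference in place of a test, 10 members were higher in Foxr2 p53LOF (among them Ccr1, Ccr2, Cxcr4, Cxcl16, Cxcl10, Cxcl9, Ccl2, Ccl12 and Ccl5), where 16.8% of 11062 genes were, and 7 were lower (Ccl6, Ccl9, Ccl3, Cx3cl1, Ccl17, Ccl27a and Ccr6), where 22.3% were. The median log2 ratio of the 24 was 0.51, and that of all genes was -0.14. The higher members thus included Ccr2 with its ligands Ccl2 and Ccl12 and Ccr1 with its ligand Ccl5, while Ccl9, another ligand of Ccr1, was lower. In Foxr2 alone, Ccl5 rests on 1 UMI and Ccl12 on 6 UMIs, and Ccl2 had 0 UMIs, so its ratio is a bound. Cxcr4 rests on 4 UMIs there, and without the S100a8 and S100a9 subcluster its log2 ratio was 1.19 (-0.21 to 3.09). The lower calls of Ccl3 and Ccl6 were lost without the S100a8 and S100a9 subcluster, as given above. Ccl17 and Ccl27a were past 2-fold lower in neuron-like, oligodendrocyte-like and astrocyte-like nuclei as well, so their calls are not particular to immune-like nuclei. Cx3cl1 rests on 6 UMIs in Foxr2 alone, with an interval that takes in 0 (-2.84 to 0.07), and Ccr6 on 7 UMIs (-2.80 to -0.12). In the glia-like classes summed, 11 members reached 10 CPM. These sums are of different mixtures, with 960 COP-like, 1532 oligodendrocyte-like and 1123 astrocyte-like of 3712 nuclei in Foxr2 p53LOF, and 1, 3023 and 425 of 3618 for Foxr2 alone, so that genotype and class mixture cannot be told apart in them. Cxcl10, Ackr3 and Ccl2 were among the 4 that were higher (23.2% of genes were). Cxcl12, Cxcl14, Cx3cl1, Ccl17 and Ccl27a were lower (5, against 21.6%). The 8 neuron markers were lower too, at 169.9 against 668 CPM (oligodendrocyte-like) and 804.7 against 2110.3 CPM (astrocyte-like). How much neuron RNA adds to the lower Cx3cl1 call was not tested. By class, Ackr3 was lower in OPC-like nuclei, at -2.46 (-5.64 to -0.36) on 2 and 15 UMIs, had a ratio of -0.28 (-1.38 to 1.01) in astrocyte-like nuclei, and held 7 and 0 UMIs in oligodendrocyte-like nuclei. In neuron-like nuclei 6 reached it, with 0 higher (13.4% of genes) and 3 lower (19.0%), namely Cx3cr1, Ccl17 and Ccl27a.

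**Figure D3:**
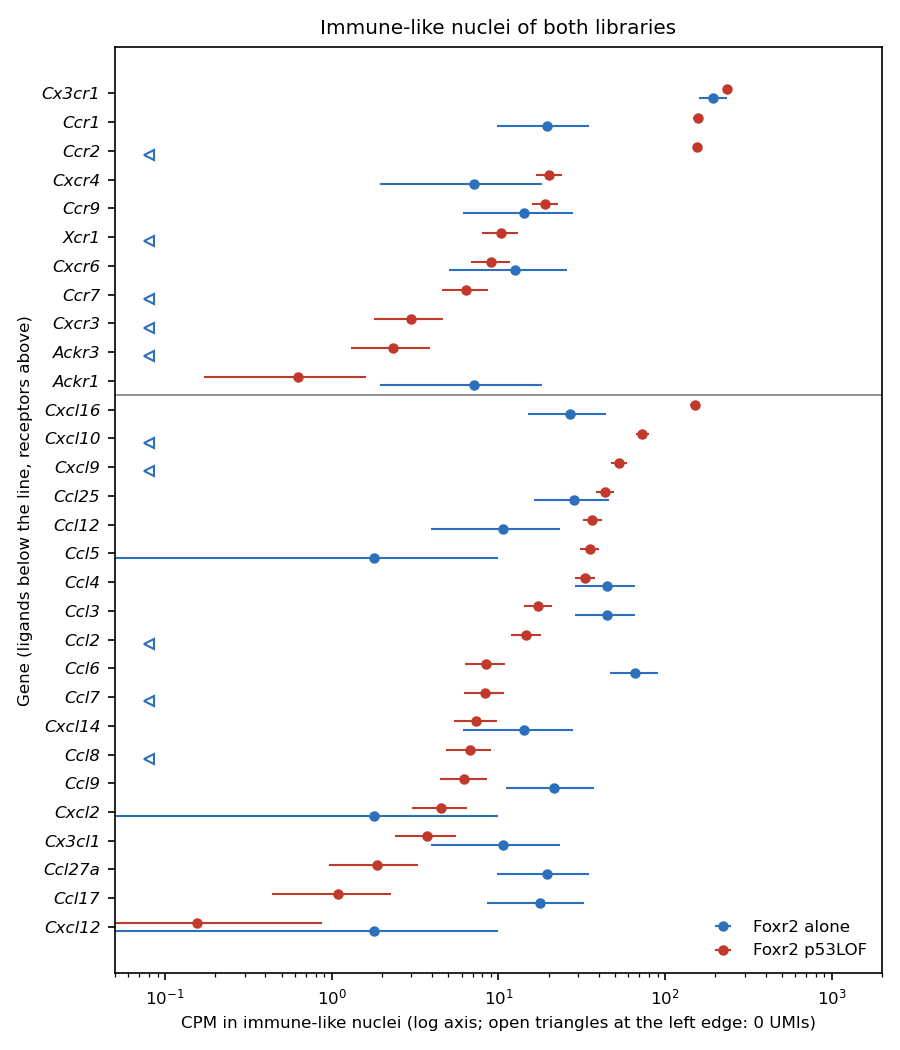
Level of members in immune-like nuclei of Foxr2 p53LOF and Foxr2 alone in CPM on a log axis, with exact Poisson 95% intervals cut at the left edge of the axis; open triangles at that edge mark 0 UMIs, and receptors stand above the line and ligands below it. Ccr1 lies at 156.8 and 19.6 CPM and Ccr2 at 155.7 CPM and 0 UMIs, whereas the intervals of Cx3cr1, at 233.5 and 194.5 CPM, overlap.

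Immune-like nuclei of Foxr2 p53LOF fell into microglia-like (656), macrophage-like (564), dendritic-like (145) and T/NK-like (97) nuclei and 3 unnamed subclusters, which differed in receptor levels and shared some receptors. Among the named classes, Cx3cr1 was highest in microglia-like nuclei, at 290.7 CPM (271 to 312), next in macrophage-like nuclei, at 219.3 CPM (197 to 244), and below 10 CPM in the other 2. The microglia-like nuclei came from 2 subclusters, and Cx3cr1 was at 420.5 CPM in the larger and 148.7 CPM in the smaller, which also held oligodendrocyte markers. Ccr2 and Ccr1 separated the myeloid classes, with Ccr2 at 355.4 CPM (327 to 386) in macrophage-like and 39.4 CPM in microglia-like nuclei, and Ccr1 at 309.4 and 50.6 CPM. In the larger microglia-like subcluster alone, Ccr2 was at 6.40 CPM and Ccr1 at 8.54 CPM.

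T/NK-like nuclei led for Cxcr6, at 247.9 CPM (184 to 327; 50 UMIs) against at most 2.65 CPM in the other named classes, and for Cxcr3, at 49.6 CPM on 10 UMIs. Ccr9 was at 158.7 CPM (109 to 224) in T/NK-like and 151 CPM (114 to 196) in dendritic-like nuclei, with intervals that overlap. They also led for 3 inflammatory ligands, with Ccl4 at 441.2 CPM (354 to 543), Ccl5 at 352 CPM (275 to 444) and Ccl3 at 267.7 CPM (201 to 349), where macrophage-like nuclei held 13.9, 20.2 and 3.15 CPM. Dendritic-like nuclei split in 2. The subcluster led by Wdfy4 and Clec9a (55 nuclei) held Xcr1 at 320.9 CPM (241 to 419) and Ccr9 at 297.1 CPM (220 to 391.7) with 0 Ccr7 UMIs. The other (90 nuclei) held Ccr7 at 105.1 CPM (65.9 to 159) and Ccr9 at 33.5 CPM with 0 Xcr1 UMIs.

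The remaining ligands followed the myeloid classes. Cxcl16 was at 245.8 CPM in macrophage-like and 227.8 CPM in dendritic-like nuclei, 64.7 CPM in microglia-like nuclei and 4.96 CPM in T/NK-like nuclei. Cxcl9 was highest in macrophage-like nuclei, at 98.3 CPM (83.5 to 115). Ccl12 was at 43.9 CPM in microglia-like and 32.1 CPM in macrophage-like nuclei, with overlapping intervals, and at 0 UMIs in dendritic-like nuclei. The unnamed subcluster led by S100a8 and S100a9 (133 nuclei) held the highest Cxcl10, at 226.4 CPM (180 to 281), and the highest Cxcr4, at 69.0 CPM (44.7 to 102). Most macrophage markers passed the naming threshold in that subcluster, as given above.

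**Figure D4:**
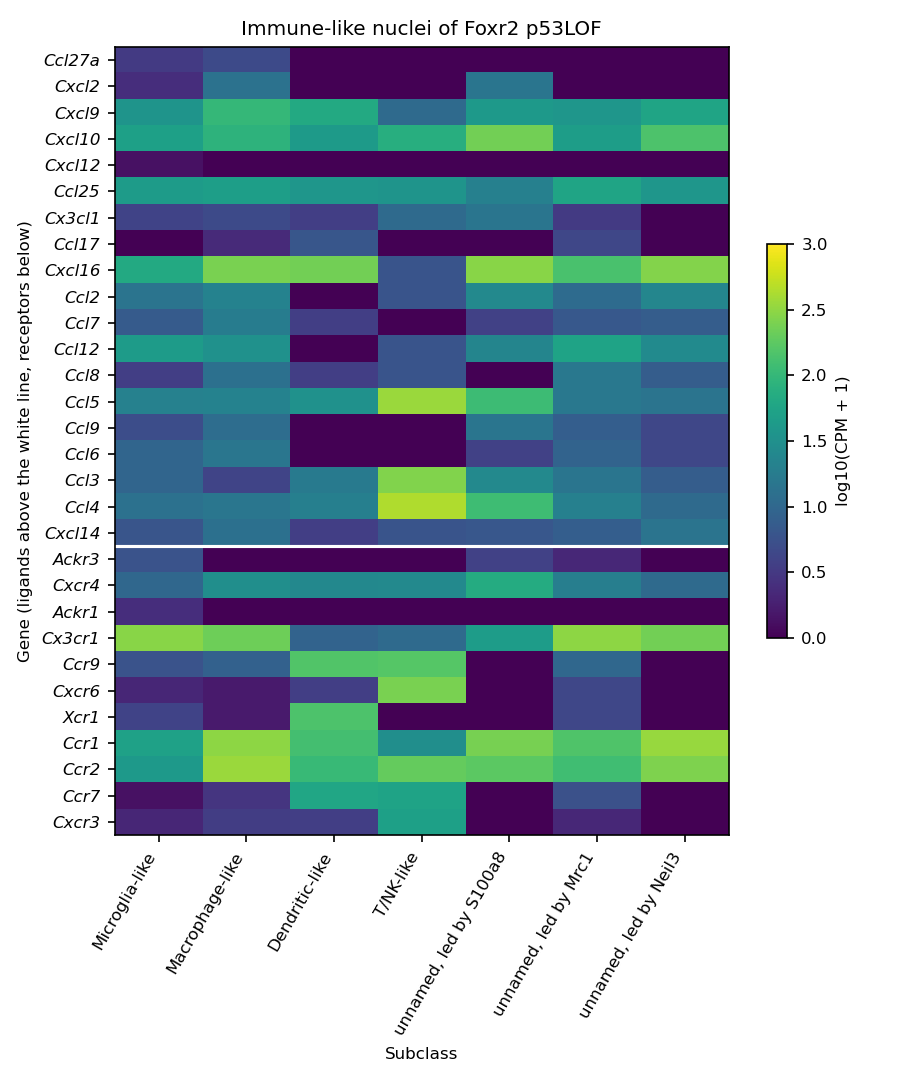
Level of named members in the immune subclasses of Foxr2 p53LOF, as log10 of CPM plus 1. Among the named subclasses, Cx3cr1 is highest in microglia-like nuclei (290.7 CPM), Ccr2 in macrophage-like nuclei (355.4 CPM), Xcr1 in dendritic-like nuclei (143 CPM) and Cxcr6 in T/NK-like nuclei (247.9 CPM).

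The immune-like nuclei of Foxr2 alone formed no named subcluster of their own, and 1 of them was called microglia-like. Their main subcluster of 406 nuclei was left unnamed, for low UMIs and no microglia marker among its leading genes. It did pass the marker rule for microglia, with 8 of 8 markers and a median log2 of 2.92. The microglia-like nuclei of Foxr2 p53LOF were therefore also set against all immune-like nuclei of Foxr2 alone. In all immune-like nuclei of Foxr2 alone, the 8 microglia markers summed to 4121.1 CPM, all 9 macrophage markers to 1377.3 CPM and 3 of 6 neutrophil markers to 2208.6 CPM. In those of Foxr2 p53LOF the sums were 2151.6, 711.8 and 161.9 CPM. In this comparison Cxcl16 had a log2 ratio of 1.27 (0.51 to 2.14) and Cx3cr1 0.58 (0.29 to 0.88), and Cxcl10 was at least 9.24-fold and Cxcl9 at least 6.46-fold higher. Ccl3 and Ccl4 were lower, at -2.38 and -1.86. Ccr1 had a log2 ratio of 1.37 (0.48 to 2.40) and Ccr2 was at least 7.36-fold higher. In the larger microglia-like subcluster Ccr1 was at 8.54 CPM and Ccr2 at 6.40 CPM, where Foxr2 alone had 19.6 CPM of Ccr1 and a floor of 5.35 CPM for Ccr2, and in the smaller subcluster with oligodendrocyte markers they were at 96.6 and 75.5 CPM. In Foxr2 alone, Ccr1 was at 3.89 CPM in the main subcluster of 406 nuclei and at 262.3 CPM in the 6 nuclei led by S100a8 and S100a9. Summed over genes, receptors were at 1.60 (1.39 to 1.82) and ligands at 0.04 (-0.19 to 0.28). Fewer cells of a type and less RNA per cell cannot be told apart within a summed class.

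Of 33 ligand and receptor pairs set from textbook knowledge, 19 could be read in Foxr2 p53LOF, with at least 10 UMIs of each gene. Both genes were highest in immune-like nuclei in 9 pairs, the receptor was immune-like and the ligand of another class in 6, and the receptor was of another class in 4. In Foxr2 alone 14 pairs could be read, with 8, 2 and 4, and the 8 include pairs of Ccl5, whose immune-like lead there rests on 1 UMI. Of all single genes, immune-like nuclei led 17.5% in Foxr2 p53LOF and 27.1% in Foxr2 alone. The pairs share genes, with Ccr1 paired to Ccl3, Ccl5, Ccl6 and Ccl9, so they are not separate observations. The pairs with a ligand from outside were Cx3cl1 of neuron-like nuclei with Cx3cr1, Ccl2, Ccl7 and Cxcl10 of astrocyte-like nuclei with Ccr2 and Cxcr3, Cxcl9 of vascular-like nuclei with Cxcr3, and Cxcl12 of vascular-like nuclei with Cxcr4. Cx3cl1 with Cx3cr1 was neuron-like to immune-like in both libraries. Among ranked classes, Cxcl12 and Ackr3 were highest in vascular-like and COP-like nuclei of Foxr2 p53LOF and in oligodendrocyte-like and OPC-like nuclei of Foxr2 alone. In Foxr2 alone, however, the 25 vascular-like nuclei and 1 COP-like nucleus were too few to be ranked. Its vascular-like nuclei held Cxcl12 at 97.3 CPM on 6 UMIs. Vascular-like nuclei of Foxr2 p53LOF held Ackr3 at 18.2 CPM on 3 UMIs. A change of source between the libraries can thus not be read from this pair. RNA levels in a pair do not show that the proteins met.

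Chromatin at the promoters was read from the authors' peaks within 1 kb of a start site. Of the 59 placed members, 30 had a promoter peak in Foxr2 p53LOF, where 58.9% of genes did, 18 in Foxr2 alone replicate 1, where 57.9% did, and 26 in Foxr2 alone replicate 2, where 56.1% did. 16 members had a peak in all 3 libraries, among them Cx3cr1, Cxcr4, Cx3cl1, Cxcl10, Cxcl14, Cxcl16, Ccl2, Ccl3 and Ccl4. Another 10 had a peak in Foxr2 p53LOF and in Foxr2 alone replicate 2 but not in Foxr2 alone replicate 1, among them Cxcr3, Ccl5, Ccl6, Ccl7, Ccl9, Ccl12, Ccl24, Cxcl2 and Cxcl12. Ccr1, Ccr3, Cxcl3 and Cxcl5 had a peak in Foxr2 p53LOF only. Peaks were called over all nuclei of a library, and the immune-like share was 21.4% and 5.08% in the libraries with 30 and 18 of these members. Its part was not tested.

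Within Foxr2 p53LOF, the class with the highest promoter count was also the class with the highest RNA for 18 of 25 members, against 38.6% of all genes, and in Foxr2 alone for 7 of 14, against 47.2%. Cx3cr1 gave 31.1 promoter CPM in immune-like nuclei and at most 1.67 in the other broad classes. Ccr1 gave 44.0 in macrophage-like and 10.1 in microglia-like nuclei, in the order of its RNA. Cxcl14 gave 24.7 promoter CPM (20.96 to 28.9) in astrocyte-like nuclei of Foxr2 p53LOF and 66.9 (55.5 to 80.1) in those of Foxr2 alone. Cxcl10 gave 19.1 (15.9 to 22.9) and 6.75 (3.49 to 11.8) in the same nuclei, though its peak also covers the start of Art3. Its highest class by promoter count was vascular-like (8 counts) in Foxr2 p53LOF and immune-like in Foxr2 alone, not the astrocyte-like class that led its RNA. The intervals of these classes overlap that of astrocyte-like nuclei, at 6.45 to 60.6 for vascular-like nuclei of Foxr2 p53LOF and 4.62 to 14.8 for immune-like nuclei of Foxr2 alone. Cxcl14 and Cxcl10 promoter CPM in astrocyte-like nuclei were ordered between the libraries as their RNA was. Peaks were called in each library on its own, however, and counts divided by its own total in peaks. The values of 2 libraries are thus not over matched regions, and a change in chromatin was not tested.

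Elsewhere promoter and RNA parted. The Ccl2 promoter gave 36.2 promoter CPM in immune-like nuclei of Foxr2 p53LOF and 31.3 in those of Foxr2 alone, where Ccl2 RNA had 0 UMIs. The Ccl3 promoter gave 59.3 and 122 and that of Ccl4 58.1 and 60.4, in immune-like nuclei of which few held their RNA. The Cxcr4 promoter gave 89.0 and 74.3 promoter CPM in immune-like nuclei but also 47.4 in astrocyte-like nuclei of Foxr2 p53LOF, whose Cxcr4 RNA was at 3.89 CPM. For Cx3cl1, astrocyte-like nuclei gave 36.3 and neuron-like nuclei 41.2 promoter CPM in Foxr2 p53LOF, with RNA at 13.8 and 49.3 CPM.

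**Figure D5:**
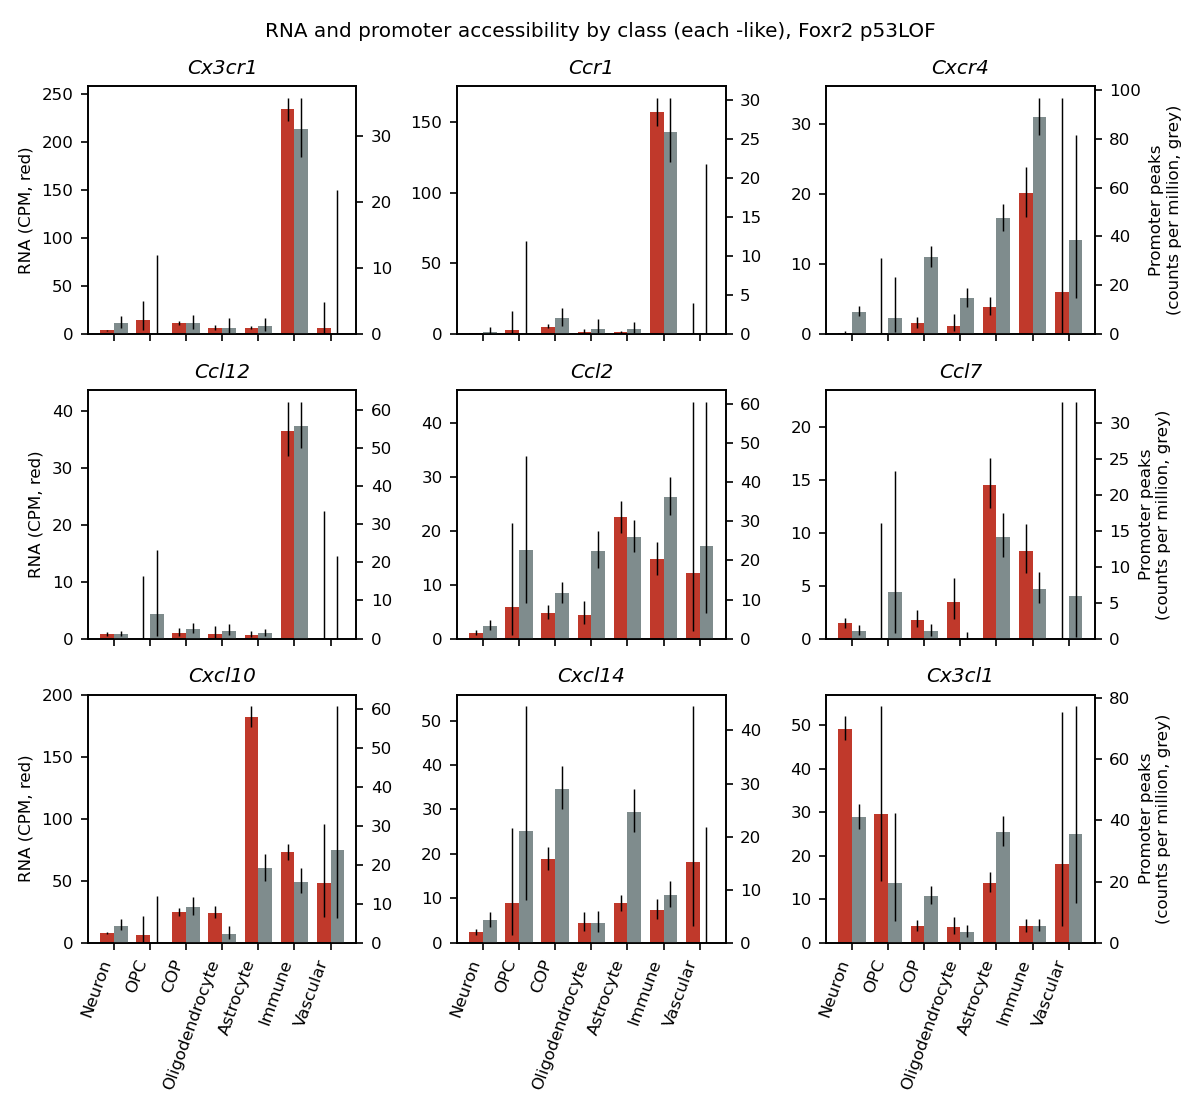
RNA level (red, CPM) and promoter CPM (grey) of 9 members by cell class in Foxr2 p53LOF. For Cx3cr1, Ccr1 and Ccl12 both bars are highest in immune-like nuclei, at 31.1, 25.9 and 56.0 promoter CPM, whereas the Ccl2 promoter gives 36.2 in immune-like and 25.9 in astrocyte-like nuclei with RNA in the opposite order.

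The promoters of Cx3cr1 and Ccr1 are shown as receptors on chromosome 9 that differ in chromatin. All 250 bases of the Cx3cr1 promoter lay under a peak in each library, and those of Ccr1 lay under a peak in Foxr2 p53LOF only. Capitals mark the kappaB core or, in Ccr1, also GAGGAA, a core of PU.1 sites that 23.3% of all promoters and 17 of 53 member promoters (Ccl21d among them) held.
Cx3cr1 (chr9:120068297-120068546, minus strand): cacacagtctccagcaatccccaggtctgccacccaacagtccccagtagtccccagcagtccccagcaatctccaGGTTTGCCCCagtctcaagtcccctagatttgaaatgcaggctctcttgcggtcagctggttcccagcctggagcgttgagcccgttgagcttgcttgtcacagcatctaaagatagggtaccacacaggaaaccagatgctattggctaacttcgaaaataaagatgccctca
Ccr1 (chr9:123968693-123968942, minus strand): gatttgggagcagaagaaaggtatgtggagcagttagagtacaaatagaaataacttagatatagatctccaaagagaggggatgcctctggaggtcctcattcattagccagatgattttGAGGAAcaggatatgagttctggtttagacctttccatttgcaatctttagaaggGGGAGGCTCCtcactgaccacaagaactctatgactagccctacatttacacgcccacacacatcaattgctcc
The Cx3cr1 match is on the opposite strand and began 174 bases before the start. In Ccr1, GAGGAA began 129 and the kappaB core 74 bases before the start, and the Ccr1 promoter gave 25.9 promoter CPM in immune-like nuclei of Foxr2 p53LOF.

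Members lie in clusters on the genome that the rule did not use. On chromosome 11, 11 Ccl genes start between 82035571 and 83662584, and on chromosome 9, a group of 10 receptors begins with Cx3cr1 at 120068283 and holds Ccr1, Ccr3 and Ccr2 side by side. Levels of neighbours were alike in some cases and apart in others. The adjacent Ccl2 and Ccl7 were both highest in astrocyte-like nuclei of Foxr2 p53LOF, at 22.4 and 14.6 CPM. Ccr3 held 4 UMIs in all kept nuclei of Foxr2 p53LOF, between Ccr1 with 1169 and Ccr2 with 1168. On chromosome 5, Cxcl9 and Cxcl10 lie next to each other, and their highest classes differed as given above.

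The 35 members not named held few UMIs. Of these, 12 had 0 UMIs in both libraries, and the largest total was 198, for Cxcl17 in Foxr2 alone. Ackr4, which scavenges Ccl19 and Ccl25, had 58 UMIs in Foxr2 p53LOF and 181 in Foxr2 alone, and Cxcr5, the follicular receptor of B cells, 19 and 47. A low total here does not show that a gene is silent, since nuclei hold little of a short cytoplasmic RNA.

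Genes that act behind or around the receptors were read as lists. Of 22 signal transduction genes, all reached 10 CPM in immune-like nuclei, 5 were higher and 0 lower in Foxr2 p53LOF, and the median log2 ratio was 0.36 against -0.14 for all genes. As given above, 16.8% of all genes were higher and 22.3% lower in these nuclei, 23.2% and 21.6% in glia-like nuclei, and 13.4% and 19.0% in neuron-like nuclei. The largest ratios were those of the Src-family kinase Fgr, at 202.4 and 42.8 CPM (2.24), the phospholipase Plcb2, at 67.8 and 23.2 CPM (1.55), and Dock2, the Rac activator of migrating leukocytes that also served as an immune marker, at 2061.1 and 872.4 CPM (1.24). In glia-like nuclei 6 of 12 were higher and 2 lower, and in neuron-like nuclei 3 of 12 and 0. The higher count in glia-like nuclei fell with a stricter filter and the lower count with doublets kept, as given below. Of 14 genes that cut or hold chemokines, 12 reached 10 CPM in immune-like nuclei, 6 were higher and 0 lower, with a median of 0.96. Mmp14, a membrane protease, was at 161.3 and 16.1 CPM, a log2 ratio of 3.33 (2.40 to 4.46). Dpp4, which trims the ends of Cxcl10 and Cxcl12, was at 117.4 CPM and 0 UMIs, and Mmp2 at 17.3 and 1.78 CPM, the latter on 1 UMI. In glia-like nuclei 7 of 12 of these genes were higher and 0 lower, and in neuron-like nuclei 2 of 8 and 0. The glia-like counts of both lists are over sums in which the class mixture differs between the libraries, as given above. Their neuron-like counts are over different neuron-like clusters in the 2 libraries. Dock2 and Plcg2, which leukocytes express, were among the signalling genes that were higher in glia-like and in neuron-like nuclei. Ctss, which also served as an immune marker, was among the genes of the second list that were higher in both. The 8 immune markers summed to 78.2 and 24.97 CPM in neuron-like nuclei and to 300.2 and 62.5 CPM in astrocyte-like nuclei, with 8 and 6 of 8 read in the latter, and the part of immune RNA in these counts was not tested.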

How the data were processed

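The 3 libraries were 10x Multiome libraries that the authors had processed with Cell Ranger ARC 2.0.0 on mm10 with vector sequences added. The deposited matrices hold raw counts, UMIs per gene and cut-site counts per peak, and peaks were called by the authors in each library on its own. Counting strand is not given in the sources used here. Nuclei were kept with at most 5% mitochondrial UMIs, at least 400 genes, at least 400 fragments in peaks and the study's upper limits. Doublets found by Scrublet (expected 8%) were 353 (4.05%) in Foxr2 p53LOF and 540 (6.10%) in Foxr2 alone and were removed. Clusters (scanpy 1.11.5, Leiden 0.10.2, resolution 0.5, 30 components, 2000 variable genes without members) were named from fixed markers. UMIs were summed per class and library and divided by the class total (CPM). Intervals are exact Poisson or, for shares, exact binomial (Clopper-Pearson) 95% intervals, and UMI counts in 1 library carry no biological error. A member was named with at least 10 UMIs and 10 CPM in a class or subclass of at least 50 nuclei. Of each list, the 3 largest ratios past 2-fold were named. Promoter counts are summed over peaks within 1 kb of a start site and compared with at least 20 counts. The members and lists were chosen with earlier results of these data known. Scripts were tested on simulated data. Alternatives covered filters, doublets, resolution, scaling, minimum level, thinning and promoter window. A member is not reported here by itself; sums and counts over all members include it.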

Additional observations from a re-analysis of the deposited data

How the results depend on the processing

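With 1 library of counts per genotype, no replicate could be left out. No paired analysis was possible because the count data hold 1 library per genotype and no result comes from a test. Over all alternatives, 146 values that answer a comparison moved by less than their counting interval or within 1.5 times, 18 moved further and 2 changed sign. For single named genes 130 and 12 did so. The log2 ratio of ligands in immune-like nuclei was 0.34 with at least 1000 genes and 1000 peak counts per nucleus and 0.92 with median-of-ratios scaling. That of receptors was 2.45 and 2.14. Before this scaling, the median log2 ratio of the genes it used was -0.23 in immune-like, -0.05 in glia-like and -0.04 in neuron-like nuclei, so the scaling raised the ratios. At 5 CPM, 8 members were higher in glia-like nuclei and 1 higher and 7 lower in neuron-like nuclei. With no minimum but 3 UMIs, 17 were higher and 10 lower in glia-like nuclei and 16 and 19 in neuron-like nuclei, since low counts then pass. The signalling list in glia-like nuclei had 3 higher genes with at least 1000 genes per nucleus and 1 lower gene with doublets kept. The remaining settings were chosen after seeing the data. Microglia-like nuclei in place of all immune-like nuclei of Foxr2 p53LOF gave 0.041 for ligands, 1.60 for receptors and 11 lower members. Without the S100a8 subcluster the ligand ratio was 0.95. For all members in glia-like nuclei with against without a vector ATAC count, the ratio of 0.08 became -0.16 within astrocyte-like and -0.11 within COP-like nuclei, and a split by GFP UMI (a setting chosen earlier) gave 1.25 over all glia-like nuclei. Other causes were not tested. Counts of 3 or fewer UMIs, most of all in the 422 immune-like nuclei of Foxr2 alone, set the limit of depth.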

Other observations

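Clusters that could not be named from markers also held chemokines in Foxr2 p53LOF. A cluster of 318 nuclei led by Pomc, Oacyl and Hspa1a, with GFP at 1828.1 CPM, held Cxcl10 at 76.6 CPM, Cx3cl1 at 32.0 CPM, Cxcl14 at 29.2 CPM, Ccl2 at 25.1 CPM and Ccl5 at 22.3 CPM. Its ligands summed to 271.5 CPM and its receptors to 54.3 CPM. A cluster of 224 nuclei with markers of astrocytes and immune cells together held Cxcl10 at 103 CPM, Cx3cr1 at 56.1 CPM and Cxcl16 at 47.4 CPM, with ligands at 345.1 CPM and receptors at 316.7 CPM, and whether these nuclei are doublets was not tested.

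Nuclei can be split by an ATAC count on the vector, which few nuclei have. Among glia-like nuclei of Foxr2 p53LOF, 629 with such a count and 3083 without held members at 276.8 and 261.2 CPM, a log2 ratio of 0.08 (0.01 to 0.16), at median depths of 9816 and 3881 UMIs. Within astrocyte-like nuclei the ratio was -0.16 (-0.26 to -0.06), with Cxcl10 at 161.9 CPM in nuclei with and 192.7 CPM in nuclei without a vector count. A nucleus without such a count may still carry the vector. Split by a GFP UMI instead, 2498 glia-like nuclei with one held Cxcl10 at 99.4 CPM and 1214 without at 21.8 CPM, a log2 ratio of 2.19 (1.88 to 2.51), at median depths of 7180 and 2561 UMIs. The part of depth and of class mixture in this was not tested. By the ATAC count, Cxcl9 was at 8.09 and 3.76 CPM over all glia-like nuclei, with 45 of its 57 UMIs of nuclei with a count in COP-like nuclei, where 1 nucleus held 30 of all 80 Cxcl9 UMIs, and Ccl5 at 3.55 and 6.92 CPM.

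Single nuclei of Foxr2 p53LOF, thinned to 1000 UMIs, also showed which members were read together. Of 136 astrocyte-like nuclei with a Cxcl10 UMI, 7 (5.15%) had a Ccl2 UMI and 8 (5.88%) a Ccl7 UMI, against 9 (0.912%) of 987 nuclei without Cxcl10 for each. For Ccl25 the shares were 6.62% and 5.67%. In immune-like nuclei Cxcl9 was found in 13.8% of those with Cxcl10 and 3.41% of those without. In macrophage-like nuclei 33.1% of those with Ccr2 and 24.9% of those without held Ccr1. These shares are over nuclei of 1 library and describe it only.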
